A study of Mus musculus with 12 samples.

Results

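The 10 genes described here code for Rab GTPases of the exocytic pathway, namely the 4 Rab3 paralogs Rab3a, Rab3b, Rab3c and Rab3d, the Rab27 paralogs Rab27a and Rab27b, the Rab8 paralogs Rab8a and Rab8b, and Rab26 and Rab37. They are 10 of the 24189 genes listed in all 10 RNA-seq libraries. The set was built around Rab3d, which was chosen by its expression difference, as its TPM was lower in all 3 comparisons of a mutant with its control. Its values are therefore given as a description without a test. The other 9 genes were added for their known role in secretion, with earlier results of these data known.

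Rab proteins are small GTPases that act as molecular switches on membranes. A guanine nucleotide exchange factor loads a Rab with GTP, the GTP-bound Rab recruits effectors such as tethers and motor adaptors, a GTPase-activating protein turns it off, and GDP dissociation inhibitors return it to the cytosol. Rab3 and Rab27 proteins sit on secretory granules and regulate their docking and release, Rab26 and Rab37 are found on granules of exocrine and mast cells, and Rab8 proteins carry vesicles from the Golgi to the plasma membrane. In zymogen-secreting cells of the stomach and pancreas, Rab3d and Rab26 are known targets of the transcription factor Mist1, which is encoded by Bhlha15 and lies downstream of the unfolded protein response factor Xbp1. Plasma cells secrete antibodies mainly by the constitutive route.

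The RNA-seq libraries came from C57BL/6 mice, with 2 independent samples for each of 5 groups. Plasmablasts (PBs) were obtained from splenic B cells after 8 days of iGB culture, in which 40LB fibroblast feeder cells present CD40 ligand and BAFF, by a sort whose gates included CD138+ and CD23-. Their genotypes were Xbp1 fl/fl, referred to as control PBs, further Cd23-Cre Xbp1 fl/fl, referred to as Xbp1-deficient PBs, and finally Bhlha15 CreER/CreER, referred to as Mist1-deficient PBs. Splenic plasma cells (PCs) were TACI+CD138+ cells sorted on day 7 after immunization with NP-KLH in alum, either from wildtype mice or from mice with the genotype Cd23-Cre Bhlha15 fl/fl, referred to as Mist1-deficient PCs. The Cd23-Cre transgene deletes from the immature to mature B cell stage onward. It is carried by the Xbp1-deficient PBs and the Mist1-deficient PCs and not by their controls. In these groups an effect of Cre cannot be told apart from that of the deletion. The PC controls are labelled as wildtype, although the methods describe them as Bhlha15 fl/fl. The Mist1-deficient PBs carry CreER in both Bhlha15 alleles of all cells and were compared with the control PBs, and a control of the same breeding without CreER was not analysed here. Mist1 Bio-ChIP-seq was performed in 2 experiments on PBs with biotinylated Mist1 (Bhlha15 fl/fl together with BirA from the Rosa26 locus) after 4 days of stimulation with LPS.

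The targeted genes followed the labels. Bhlha15 was expressed at 176 and 159 TPM (a transcript level corrected for gene length and library size) in control PBs, at 3.57 and 2.60 TPM in Xbp1-deficient PBs and at 0.21 and 0.55 TPM in Mist1-deficient PBs. In PCs, Bhlha15 was at 258 and 242 TPM in the wildtype and at 14.4 and 16.6 TPM after deletion, so that both PB mutants and the PC mutant lacked most Bhlha15 transcript. Xbp1 had a mean of 3105 TPM in control and 2002 TPM in Xbp1-deficient PBs, and this value covers the whole gene, including exons outside the floxed part. All 10 plasma cell markers examined were above 1 TPM in every group. Of these, 6 were called lower and 0 higher in Xbp1-deficient PBs, the deleted Xbp1 among the lower ones, beside 18.0% and 10.3% of all genes. The median log2 fold change of the 10 markers was -0.63. Their sum was 42335 and 42285 TPM in control and 21954 and 21339.5 TPM in Xbp1-deficient PBs. Most of it came from Igj (means of 22086.5 and 14078.3 TPM) and Mzb1 (15284 and 3627 TPM). The means of Irf4 (667 and 918 TPM) and Prdm1 (190 and 268 TPM) were higher in Xbp1-deficient PBs, but neither was called higher. In Mist1-deficient PCs 2 were lower and 3 higher, beside 16.2% and 13.3% of all genes. Transcripts of other cells were present. The sum of 10 fibroblast markers, a cell type to which the 40LB feeder cells belong, was 956 to 1895 TPM in PBs and 25.7 to 31.4 TPM in PCs. The sum of 15 neutrophil markers was 514 to 1043 TPM in PCs, 142 and 144 TPM in Xbp1-deficient PBs and 6.87 to 14.3 TPM in the other PBs. Of 8 tested markers, 7 were higher in Xbp1-deficient than in control PBs, beside 10.3% of all genes. Among the 8, Camp, Ngp and Retnlg passed the filter of 1 TPM in 2 libraries through the Xbp1-deficient PBs alone, so that they had to be higher there. The part of these marker differences in the results below was not tested. In bulk samples, fewer cells of a type and less RNA per cell cannot be told apart.

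The 10 genes spanned a wide range of levels. Rab8a, the most abundant, had group means of 165 to 248 TPM, and Rab27a had 22.1 to 134 TPM. Rab8b ranged from 50.1 to 82.6 TPM and Rab3a from 7.58 to 42.5 TPM. Rab37 stayed between 3.15 and 6.01 TPM and Rab3b between 0.17 and 3.69 TPM. Rab27b was at or below 1.34 TPM in all PB libraries and was listed at 0 to 0.026 TPM in PCs, whereas Rab3c, a neuronal paralog, did not exceed 0.043 TPM in any library. The highest group mean was found in PCs for 5 of the 10 genes, namely Rab3a, Rab3b, Rab3d, Rab26 and Rab8b.

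**Figure D1:**
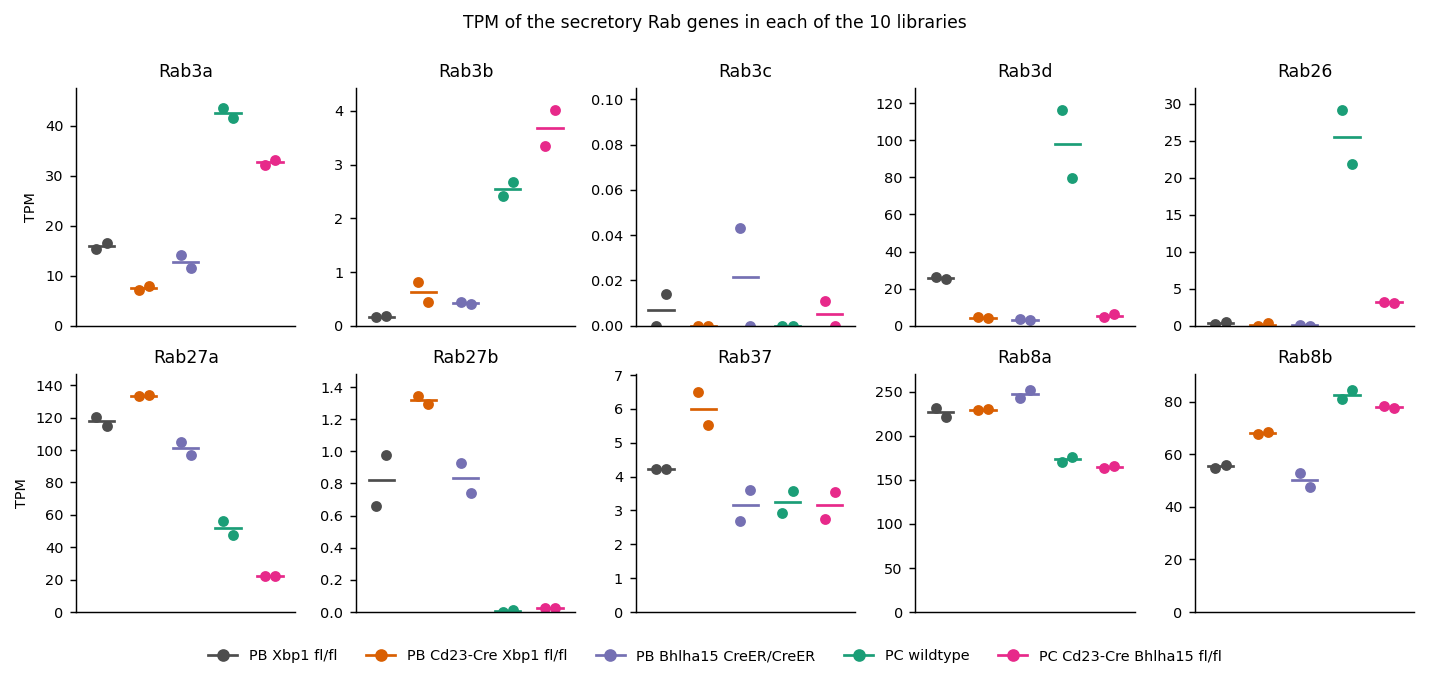
Levels of the 10 genes in TPM, with 1 point for each library and a bar at the mean of the 2 libraries of a group. Rab3d and Rab26 stood out in wildtype PCs, Rab27a was highest in PBs, and the axes differ between genes, each starting at 0.

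Rab3d, a Rab of zymogen granules, was high in the controls and low in each mutant. Among PBs, it was at 26.2 and 25.4 TPM in the controls, at 4.74 and 4.07 TPM in the absence of Xbp1 and at 3.60 and 3.11 TPM in the absence of Mist1. The 4 mutant PB libraries thus lay in a narrow range far below the control libraries. In PCs, Rab3d was at 116 and 79.7 TPM in the wildtype and at 4.57 and 6.14 TPM in the mutant libraries, again without overlap. The log2 fold change was -2.73 (SE 0.14, 6.64-fold lower) in Xbp1-deficient PBs, -2.87 (SE 0.14, 7.31-fold lower) in Mist1-deficient PBs and -4.14 (SE 0.23, 17.6-fold lower) in Mist1-deficient PCs. Between the mutant PB genotypes the log2 difference was 0.14 (SE 0.14). The means of the 3 mutant groups ranged from 3.36 to 5.36 TPM, and the mean of the control PBs was 25.8 TPM.

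The binding of Mist1 near the Rab genes was taken from the 2 ChIP-seq experiments in LPS-stimulated PBs, with 29413 and 30247 peaks. Peaks that overlapped by at least 1 bp formed 23806 common regions. A common region lay within 1 kb of a transcription start site (TSS) for 5 of the 10 genes, namely Rab3a, Rab3d, Rab26, Rab27a and Rab8a, as compared with 35.8% of 22359 protein-coding genes. Among genes with at least 1 TPM in control PBs, which came from the iGB culture, it was 4 of 6 of these genes and 63.9% of 10673 genes. The share of Rab genes was thus near the background. Rab26 had such a region in the LPS-stimulated PBs. Its transcript was hardly detected in the iGB PBs, and RNA of LPS-stimulated PBs was not analysed here. Rab8b had a peak at its TSS in the second experiment alone and a common region beginning 1297 bp after the TSS. Rab37 had 5 common regions inside the gene, the nearest at 7851 bp after the first TSS. No peak of either experiment lay within 10 kb of Rab27b, and Rab3b had 1 peak in the second experiment alone.

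**Figure D2:**
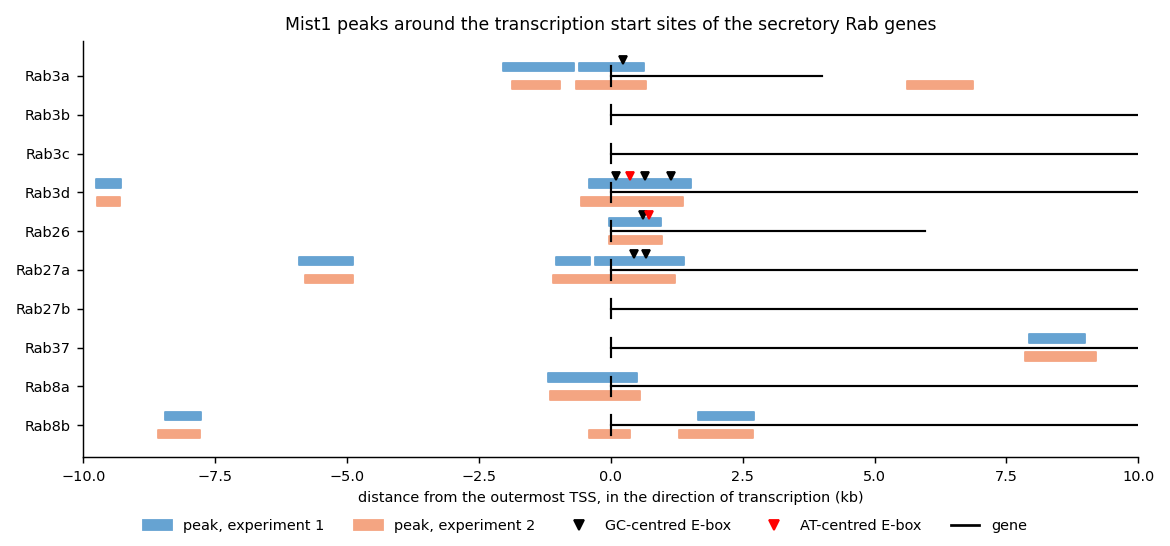
Mist1 peaks of both experiments within 10 kb of the outermost TSS of each gene, with distances in kb along the direction of transcription. Peaks of both experiments covered the TSS of Rab3a, Rab3d, Rab26, Rab27a and Rab8a, and triangles mark GC-centred (black) and AT-centred (red) E-boxes in the shared segments there.

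At each of these 5 start sites, the segment covered by both experiments was searched for E-boxes, the sites of bHLH proteins. The general form CANNTG was counted first, then its GC-centred form, which is CAGCTG, and its AT-centred form, which is CATATG. All read the same on both strands, and the general form includes the other two. The shared segment at Rab3d (chr9:21721268-21723043, mm9) extended from -407 to 1368 bp relative to the TSS and held 11 E-boxes, of which 3 were GC-centred and 1 AT-centred. The segment at Rab26 (chr17:24669741-24670724) extended from -32 to 951 bp and held 6 E-boxes, with 1 GC-centred and 1 AT-centred. The segments of Rab27a and Rab3a contained 2 and 1 GC-centred and no AT-centred E-boxes, and the segment of Rab8a had neither form. In windows of the length of the Rab3d and Rab26 segments at all common regions, the GC-centred form was found in 72.9% and 62.7% and the AT-centred form in 38.4% and 28.2%. These letters are hence frequent in Mist1 regions, and a match does not show that the site is bound.

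The following sequences show the E-boxes of Rab3d and Rab26, the pair of genes with both forms, and those of Rab27a and Rab3a for comparison. They were read from the mm9 genome, are given 5′ to 3′ on the strand of the gene with the E-box in capitals, and are intronic in the GENCODE M1 annotation.
Rab3d AT-centred E-box, 370 bp after the TSS, chr9:21722231-21722296, minus strand: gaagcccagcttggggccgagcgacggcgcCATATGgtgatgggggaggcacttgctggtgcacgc
Rab3d GC-centred E-box, 656 bp after the TSS, chr9:21721945-21722010, minus strand: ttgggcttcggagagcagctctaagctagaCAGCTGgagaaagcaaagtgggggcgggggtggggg
Rab3d GC-centred E-box, 1131 bp after the TSS, chr9:21721470-21721535, minus strand: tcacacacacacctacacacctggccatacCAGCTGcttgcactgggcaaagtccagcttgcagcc
Rab26 GC-centred E-box, 606 bp after the TSS, chr17:24670051-24670116, minus strand: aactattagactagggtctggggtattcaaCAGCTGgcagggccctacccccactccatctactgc
Rab26 AT-centred E-box, 726 bp after the TSS, chr17:24669931-24669996, minus strand: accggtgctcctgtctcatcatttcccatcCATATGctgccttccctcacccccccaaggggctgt
Rab27a GC-centred E-box, 444 bp after the TSS, chr9:72893086-72893151, plus strand: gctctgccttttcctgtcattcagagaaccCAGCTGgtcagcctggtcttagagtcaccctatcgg
Rab27a GC-centred E-box, 675 bp after the TSS, chr9:72893317-72893382, plus strand: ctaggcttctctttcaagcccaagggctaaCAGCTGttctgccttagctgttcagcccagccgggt
Rab3a GC-centred E-box, 238 bp after the TSS, chr8:73278786-73278851, plus strand: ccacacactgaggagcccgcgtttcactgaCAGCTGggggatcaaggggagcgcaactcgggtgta
The remaining GC-centred E-box of Rab3d is located in an untranslated region, 88 bp after the TSS.

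To compare the paralogs in Xbp1-deficient PBs, all genes with at least 1 TPM in 2 libraries were fitted with limma on TPM scaled between libraries. Of the 9 genes other than Rab3d, 6 could be tested, and 1 of these, Rab3a, was lower and 0 were higher. In the same comparison 28.3% of 12125 genes were called at an adjusted p under 0.05, with 18.0% lower and 10.3% higher. Rab3a, the Rab3 of synaptic vesicles, fell from 15.3 and 16.5 TPM to 7.11 and 8.05 TPM, with no overlap between the groups. In the same libraries 6 of 10 plasma cell markers were called lower. The log2 fold change of Rab3a was -1.27 (SE 0.11, 2.41-fold lower, adjusted p = 8.80e-05). The direction of the genome-wide calls depended on the scaling, since 2186 genes were lower and 1250 higher after scaling, while 1357 were lower and 3423 higher with TPM as deposited, which put the median of all genes at 0.21 on the log2 scale. Rab3a was called lower in all 13 alternatives, with log2 fold changes of -1.36 to -1.06.

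The calls for the other Rab genes in Xbp1-deficient PBs depended on the scaling. Rab27a, which docks granules at the plasma membrane of cytotoxic T cells and carries melanosomes, had a log2 fold change of -0.025 (95% confidence interval -0.20 to 0.15, adjusted p = 0.84). Rab8a had -0.19 (-0.40 to 0.023, adjusted p = 0.17) and Rab8b 0.089 (-0.070 to 0.25, adjusted p = 0.38). With TPM as deposited, Rab27a (0.18, adjusted p = 0.0462) and Rab8b (0.30, adjusted p = 0.0145) were called higher. Rab8b was called higher in 3 of 13 alternatives. Rab37, a mast cell granule Rab, was at 4.22 and 4.23 TPM in the controls and at 6.50 and 5.52 TPM in the mutant. The groups did not overlap, but the log2 fold change of 0.29 (-0.21 to 0.78) had an adjusted p of 0.36. Rab27b, a Rab of mast cell and platelet granules, was at 0.66 and 0.98 TPM in the controls and at 1.34 and 1.30 TPM in the mutant. It passed the filter on low values through the Xbp1-deficient libraries alone, and its difference is therefore a description. The filter on low values removed Rab3b, Rab3c and Rab26 in PBs. Rab26 was listed at 0 or up to 0.50 TPM in all 6 PB libraries, which include the controls with intact Bhlha15.

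Rab3a differed between the mutant PB genotypes. In Mist1-deficient PBs it was at 14.1 and 11.5 TPM, and its log2 fold change against control PBs was -0.28 (-0.54 to -0.016, adjusted p = 0.45). The direct comparison of Xbp1-deficient with Mist1-deficient PBs gave -0.99 (SE 0.11, adjusted p = 0.000365) for Rab3a, beside a difference of 0.14 for Rab3d. The libraries of the 3 genotypes did not overlap for Rab3a. These comparisons share libraries and are not independent. At its 3′ end, Rab3a overlaps Mpv17l2 on the opposite strand, and both gene names carry a mark in the files. The meaning of the mark and the strand setting of the counting are not given in the sources used here. Mpv17l2 had a mean of 57.0 TPM in control, 94.0 TPM in Xbp1-deficient and 68.3 TPM in Mist1-deficient PBs, and of 28.0 TPM in wildtype and 44.3 TPM in Mist1-deficient PCs. Its mean was thus higher in each mutant group, where that of Rab3a was lower, and its part in the Rab3a values was not tested.

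Of the 6 genes tested in Mist1-deficient PBs, 0 were called by limma, while 2 of them, Rab3a and Rab27a, had an unadjusted p under 0.05. Across all genes, 39 of 12125 (0.322%) were called in this comparison, with 0.272% lower and 0.0495% higher. Rab27a was at 105 and 97.02 TPM, beside 121 and 115 TPM in control PBs, and the log2 fold change was -0.18 (-0.35 to -0.0056, adjusted p = 0.46). Rab8a had 0.17 (-0.040 to 0.38, adjusted p = 0.57), Rab8b -0.10 (-0.26 to 0.056, adjusted p = 0.65) and Rab37 -0.39 (-0.88 to 0.11, adjusted p = 0.58). Rab27b was at 0.66 and 0.98 TPM in control and at 0.93 and 0.74 TPM in Mist1-deficient PBs, with overlapping groups.

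In the comparison of Xbp1-deficient with Mist1-deficient PBs, 3 of 6 genes were called beside 27.1% of all genes (17.8% lower and 9.34% higher). In addition to Rab3a, these were Rab8a with -0.36 (SE 0.091, adjusted p = 0.0213) and Rab37 with 0.67 (SE 0.21, adjusted p = 0.0498). Before scaling, Rab8a was at 230 TPM in both Xbp1-deficient libraries and at 243 and 253 TPM in the Mist1-deficient libraries. Rab37 was at 6.50 and 5.52 compared with 2.70 and 3.60 TPM. The scaling factors were 1.12 for both Xbp1-deficient libraries and 0.99 and 0.90 for the Mist1-deficient libraries. Over the alternatives without a library left out, the log2 difference of Rab8a ranged from -0.36 to -0.11. Rab37 lost its call in 9 and Rab8a in 6 of 13 alternatives. Calls were also gained, as Rab27a was called higher with TPM as deposited (0.40, adjusted p = 0.00173) and quantile normalization (0.33, adjusted p = 0.00279), and Rab8b with these (0.44, adjusted p = 0.00259, and 0.33, adjusted p = 0.00407) and with all 10 libraries in one model (0.26, adjusted p = 0.00322). Rab3a alone was called without either Xbp1-deficient library. In the genome-wide calls, 2155 genes were lower and 1132 higher, as compared with 1266 lower and 3977 higher with TPM as deposited, where the median of all genes was 0.26.

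**Figure D3:**
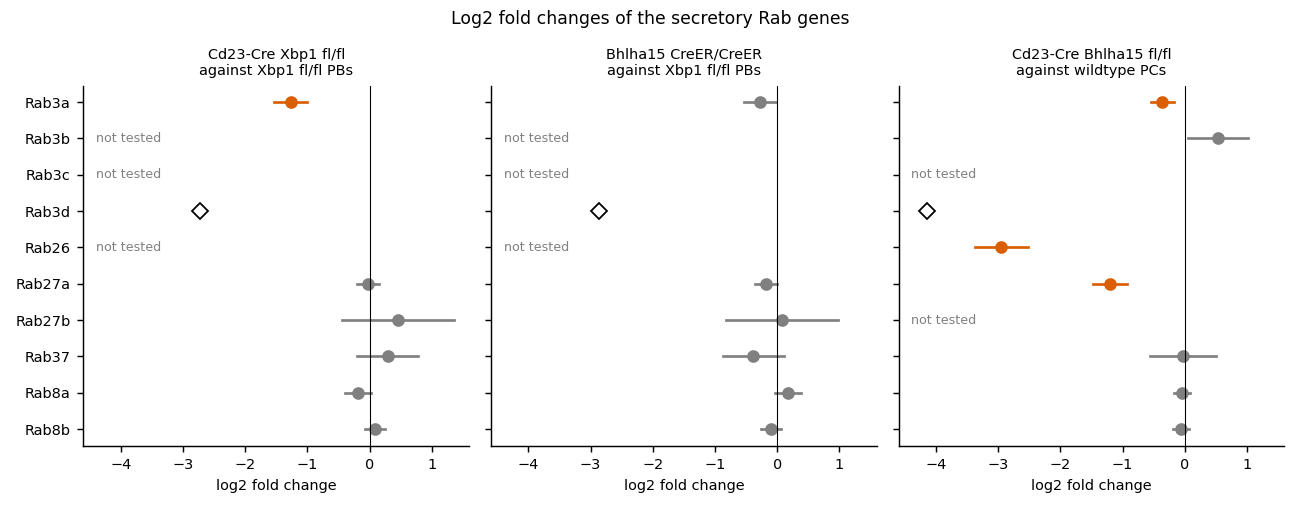
Log2 fold changes of the 10 genes in the 3 comparisons of a mutant with its control, with 95% confidence intervals. Orange marks an adjusted p under 0.05, the open diamond shows Rab3d without an interval, and Rab26, Rab27a and Rab3a were lower in Mist1-deficient PCs.

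In Mist1-deficient splenic PCs, 7 of the 9 genes were tested, and 3 were called lower and 0 higher at an adjusted p under 0.05. By comparison, 29.5% of 12028 genes were called, with 16.2% lower and 13.3% higher. Rab26, which directs granule maturation in acinar cells, fell from 29.1 and 21.9 TPM to 3.21 and 3.08 TPM. The groups were far apart, and the log2 fold change of -2.95 (SE 0.17, 7.72-fold lower, adjusted p = 0.00130) kept its call in all 12 alternatives, which ranged from -3.18 to -2.65. Rab27a fell from 56.1 and 47.7 TPM to 22.03 and 22.2 TPM. Its log2 fold change was -1.20 (SE 0.11, 2.30-fold lower, adjusted p = 0.00211) and was likewise called in all 12 alternatives. Rab3a decreased less, from 43.5 and 41.6 TPM to 32.2 and 33.2 TPM, and its log2 fold change of -0.36 (SE 0.074, adjusted p = 0.0181) lost the call in 3 of 12 alternatives, including the omission of either mutant library (adjusted p = 0.120 and 0.0990). The level of the overlapping Mpv17l2 was higher in the same mutant libraries.

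The remaining paralogs of PCs showed small differences between the genotypes. Rab3b, which is found in endocrine and epithelial cells, was at 2.41 and 2.67 TPM in the wildtype and 3.35 and 4.02 TPM in the Mist1-deficient libraries. The groups did not overlap, yet the log2 fold change of 0.54 (0.052 to 1.02) had an adjusted p of 0.0909, or 0.0472 after quantile normalization. The name of Rab3b carries the same mark as that of Rab3a, and the gene overlaps 8030443G20Rik and Gm12736 on the opposite strand. Rab8a was at 171 and 176 TPM compared with 164 and 166 TPM (-0.052, interval -0.18 to 0.075, adjusted p = 0.48), and Rab8b had a log2 fold change of -0.063 (-0.20 to 0.070, adjusted p = 0.41). Rab37 was at 2.94 and 3.58 TPM compared with 2.76 and 3.55 TPM, with overlapping groups (-0.032, interval -0.56 to 0.50, adjusted p = 0.92).

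The PC libraries also held transcripts of other cells, and none of the marker lists below had a larger share called than the 29.5% of all genes. The sum of the 10 B cell markers was 1023 and 1385 TPM in the wildtype and 812 and 890 TPM in the mutant libraries, and 2 of 10 were lower. The sum of 14 T and NK cell markers was 107 and 108 TPM compared with 120 and 145 TPM, with 2 of 13 tested markers higher and 1 lower and a median log2 fold change of 0.47. The T cell receptor subunit Cd3d (0.64, adjusted p = 0.0389) and the granzyme Gzma (0.69, adjusted p = 0.00641) were higher, and the perforin Prf1 was lower (-0.99, adjusted p = 0.0175). The sum of the neutrophil markers was 1043 and 514 TPM compared with 901 and 601 TPM, and 0 of 15 were called by limma, with 1 at an unadjusted p under 0.05. The sum of 12 mast cell and basophil markers was 19.3 and 10.7 TPM in the wildtype and 23.0 and 26.9 TPM in the mutant libraries. Of 5 tested, 1 was higher and 0 lower, with a median log2 fold change of 0.93. The part of these cells in the levels of Rab27a and Rab26 was not tested.

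The proportions of the Rab3 paralogs shifted in each mutant. Rab3d made up 62.9% and 60.3% of the summed Rab3 TPM in control PBs and 71.7% and 64.3% in wildtype PCs. Its share was 37.4% and 32.4% in Xbp1-deficient PBs, 19.8% and 20.7% in Mist1-deficient PBs and 11.4% and 14.2% in Mist1-deficient PCs. Rab3a supplied most of the remainder, with 80.2% and 76.6% of the sum in Mist1-deficient PCs. The sum itself was 162 and 124 TPM in wildtype PCs and 40.1 and 43.4 TPM in Mist1-deficient PCs. Rab3a, Rab3b and Rab3d have no stretch of 50 bases in common with a protein-coding transcript of another gene in GENCODE M1. Non-coding transcripts were not searched. Since Rab3d was selected for its difference, these shares are descriptive.

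**Figure D4:**
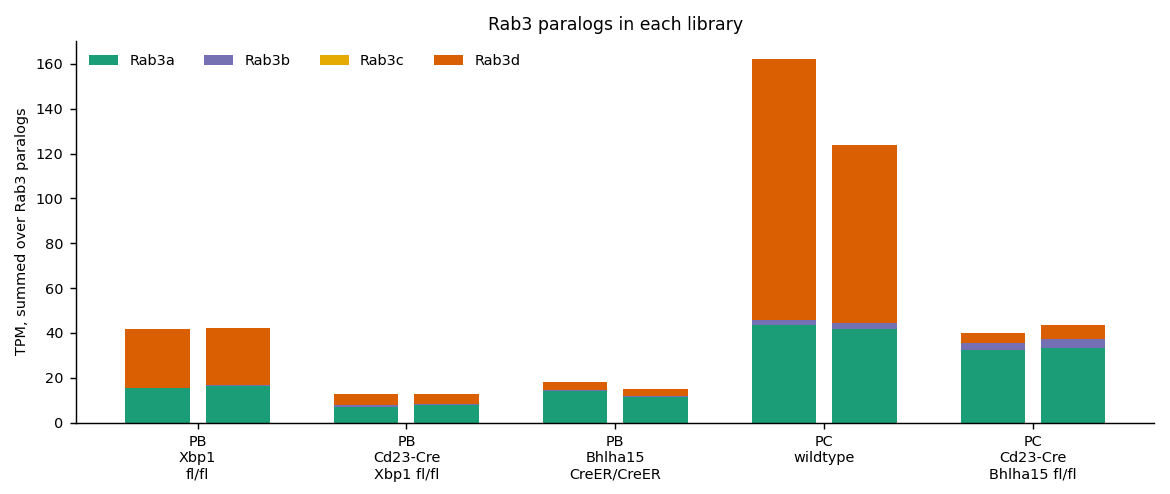
Summed TPM of the Rab3 paralogs in each library, with 2 bars for each group and stacked segments for the paralogs. Rab3d was the largest segment in control (Xbp1 fl/fl) PBs and wildtype PCs and Rab3a in the mutants.

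Whether loss of Mist1 affected the paralogs differently in the 2 cell stages was tested in a model of all 10 libraries. The change in Mist1-deficient PCs differed from that in Mist1-deficient PBs for 1 of 8 genes, Rab27a, beside 6.11% of 13230 genes (4.17% lower and 1.94% higher, or 552 and 257 genes, as compared with 684 and 530 genes after quantile normalization). Rab27a had a difference of the log2 fold changes of -1.01 (SE 0.12, adjusted p = 0.00708), which held in all 15 alternatives. The difference was -0.069 for Rab3a (-0.37 to 0.23, adjusted p = 0.83). Rab26 passed the filter on low values through the PC libraries alone and was at 0 to 0.50 TPM in PBs. Its difference of -1.58 is therefore a description. The Rab26 value ranged from -2.32 at a pseudocount of 1 to -0.039 at 0.01. It was -2.30 to -0.84 with a library left out, the extremes being those without the second and the first Mist1-deficient PB library. For Rab3d the difference was -1.25 (SE 0.29). The mutant alleles, the control genotypes, the culture and the experiment differ between the stages and cannot be told apart from the stage.

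Wildtype PCs and control PBs, both with intact Bhlha15, were compared for 8 of the genes. Over all genes, 76.0% of 13230 were called (38.4% lower and 37.6% higher). Rab26 and Rab3b passed the filter on low values through the PC libraries alone, so that they had to be higher there, and they are given as a description. Rab26 went from 0.19 and 0.50 TPM in PBs to 29.1 and 21.9 TPM in PCs, with a log2 difference of 5.83 that ranged from 4.22 to 6.20 with the pseudocount. Rab3b was at 0.16 and 0.18 TPM in PBs and at 2.41 and 2.67 TPM in PCs, with a log2 difference of 3.19 that ranged from 1.54 to 3.70 with the pseudocount. Among the others, Rab3a was 2.46-fold higher in PCs (log2 difference 1.30, SE 0.095, adjusted p = 2.10e-06). Rab8b was also higher in PCs (0.46, SE 0.048, adjusted p = 2.00e-05). In the other direction, Rab27a was 2.46-fold lower in PCs (-1.30, SE 0.087, adjusted p = 1.25e-06) and Rab8a was lower by a smaller amount (-0.50, SE 0.063, adjusted p = 7.50e-05). Rab27b passed the filter on low values through the Xbp1-deficient PBs alone and is likewise a description. It was at 0.66 and 0.98 TPM in control PBs and at 0 and 0.013 TPM in wildtype PCs, and no fold is given. Rab37 was not called (-0.48, adjusted p = 0.0680). Rab3d was 3.44-fold higher in PCs (log2 difference 1.78, SE 0.20), with 1.49 and 2.08 when the first or second PC library was left out. Stage, culture and experiment cannot be told apart here.

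Among the 47 other Rab genes, 38 were tested in each mutant comparison. In Xbp1-deficient PBs 8 were lower and 4 higher, beside 18.0% and 10.3% of all genes, but 6 lower and 15 higher with TPM as deposited and 7 lower and 11 higher with quantile normalization, so that the direction of the list flips with the scaling. The largest change was that of Rab39b, a neuronal Rab of the early secretory pathway, which fell from a mean of 22.4 to 4.24 TPM (log2 fold change -2.58, adjusted p = 1.44e-06). Rab1, which acts between the ER and the Golgi, fell from 354 to 211 TPM (-0.95, adjusted p = 6.98e-05), and Rab6a, which acts at the Golgi, decreased from 91.4 to 70.0 TPM (-0.59, adjusted p = 0.000578). Rab4a of recycling endosomes was higher (0.77, adjusted p = 0.0304). In Mist1-deficient PBs 0 of 38 were called by limma, and 0 had an unadjusted p under 0.05. In Mist1-deficient PCs 4 were lower and 4 higher, which was no larger a share than the 29.5% of all genes called. Rab20 fell from 7.82 to 2.25 TPM (-1.90, adjusted p = 0.0329) and Rab30 of the Golgi from 110 to 79.4 TPM (-0.45, adjusted p = 0.00399), whereas Rab24, which is linked to autophagy, rose from 74.0 to 117 TPM (0.69, adjusted p = 0.00399). The median log2 fold change of the other Rab genes was 0.023 in Xbp1-deficient PBs, 0.062 in Mist1-deficient PBs and -0.031 in Mist1-deficient PCs, beside medians of all genes of 0.0041, 0.0044 and 0.014.

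**Figure D5:**
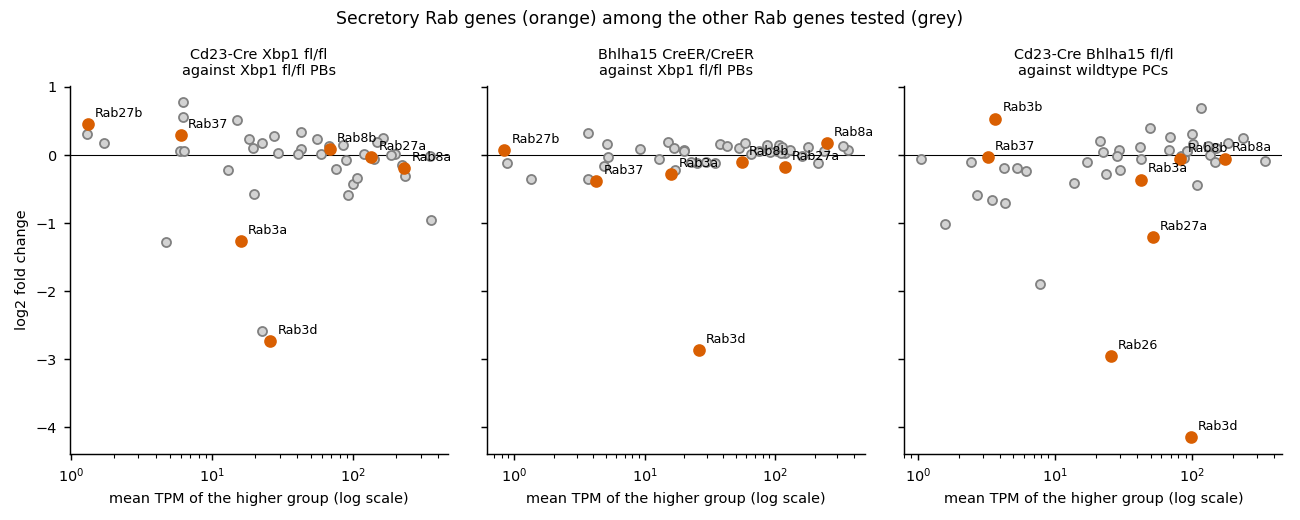
Log2 fold changes of all Rab genes tested against the mean TPM of the higher group on a log scale, with the secretory Rab genes in orange and the other Rab genes in grey. Rab3d was chosen for its lower values in these comparisons, so that its position is a description. Of the other Rab genes plotted, Rab39b had the lowest value in Xbp1-deficient PBs and Rab26 in Mist1-deficient PCs.

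Effectors of Rab3, Rab27 and Rab8 were examined as a list of 31 genes, of which 13 or 14 were tested. In each group 17 or 18 of the 31 genes stayed below 1 TPM. In Xbp1-deficient PBs 1 of 13 was lower and 2 higher, beside 28.3% of all genes called, with Ehbp1l1 at a log2 fold change of -0.61 (adjusted p = 0.000348) and Mical1, an actin-oxidizing Rab effector, at 0.56 (adjusted p = 0.000593). In Mist1-deficient PCs 2 of 14 were lower and 1 higher, beside 29.5% of all genes called, so that neither share exceeded that of all genes. The Rab27 effector Sytl1 (Slp1) fell from 10.5 to 3.35 TPM (-1.60, adjusted p = 0.00417), Mical1 decreased slightly (-0.30, adjusted p = 0.0221), and the Rab27a effector Unc13d (Munc13-4), which primes lytic granules, was higher (0.27, adjusted p = 0.0494), a call that was lost with TPM as deposited (0 higher). In Mist1-deficient PBs 0 of 13 were called by limma and 1 had an unadjusted p under 0.05.

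The list of 33 exchange factors, GTPase-activating proteins, GDP dissociation inhibitors and prenylation factors had 31 tested genes in PBs and 30 in PCs. In Xbp1-deficient PBs 11 were lower and 2 higher, beside 18.0% and 10.3% of all genes, with a median log2 fold change of -0.19 beside 0.0041 over all genes, but 5 were lower and 6 higher with TPM as deposited. Among them, Tbc1d15, which inactivates Rab7, fell from 154 to 88.8 TPM (-1.003, adjusted p = 5.02e-05), and Rab3gap2, the regulatory subunit of the Rab3 GTPase-activating complex, had -0.64 (adjusted p = 0.000445), and its name carries the same mark as that of Rab3a. In Mist1-deficient PCs 5 were lower and 6 higher, beside 16.2% and 13.3% of all genes, compared with 5 and 3 for TPM as deposited. Rab3gap1, the catalytic subunit, was at 66.8 and 51.9 TPM in wildtype and mutant PCs (-0.34, adjusted p = 0.00988), Dennd1c, an exchange factor of Rab35, at 99.7 and 71.5 TPM (-0.46, adjusted p = 0.00938), and Evi5 rose from 55.2 to 104 TPM (0.94, adjusted p = 0.00327). In Mist1-deficient PBs 0 of 31 were called by limma and 2 had an unadjusted p under 0.05.

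Of 28 tested SNARE genes and their partners, 5 were lower and 3 higher in Xbp1-deficient PBs after scaling, beside 28.3% of all genes called, as compared with 2 lower and 8 higher with TPM as deposited. Among the lower genes were Vamp4 (-0.59, adjusted p = 0.000894) and Vamp2 (-0.44, adjusted p = 0.00568). In Mist1-deficient PCs 3 of 27 were lower and 2 higher, a smaller share than the 29.5% of all genes. Vamp8, a SNARE of late endosomes and secretory granules, fell from 320 to 188 TPM (-0.74, adjusted p = 0.00196), while the related Vamp3 rose from 114 to 182 TPM (0.70, adjusted p = 0.00227). Of 11 exocyst subunits and Ral GTPases, which tether vesicles at the plasma membrane, 3 were lower and 0 higher in Mist1-deficient PCs, near the share of all genes, with Exoc6b at -0.51 (adjusted p = 0.0108), and 1 was lower and 2 higher in Xbp1-deficient PBs (1 lower and 7 higher with TPM as deposited). In Mist1-deficient PBs 0 genes of either list were called by limma, with an unadjusted p under 0.05 for 2 SNARE genes and for 0 exocyst genes.

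Finally, genes with a pattern like that of Rab3d were sought over the 10 libraries, among 10792 other genes with at least 5 TPM in the mean of a group. The highest Pearson correlations of the log2 levels were those of Cep250 (r = 0.996), Socs7 (0.987), Qsox2 (0.985), Zfp667 (0.976), Bckdk (0.971), Rassf4 (0.965), Slc17a5 (0.962), BC003331 (0.960), Mrgpre (0.960) and AU040320 (0.959). Cep250 had means of 43.3, 23.7 and 19.5 TPM in control, Xbp1-deficient and Mist1-deficient PBs and of 76.0 TPM in wildtype and 26.3 TPM in Mist1-deficient PCs. The genes most like Rab26 were Qser1 (r = 0.991), BC016423 (0.991), Slc37a3 (0.987), Prdm15 (0.985) and Gm15800 (0.984). The points are libraries that share genotype, stage and experiment, and these correlations are descriptive. All 10 genes of the Rab3d list and all 5 of the Rab26 list had a common Mist1 region within 1 kb of a TSS. The share was 67.1% of 9842 protein-coding genes with at least 5 TPM. The lists were drawn from the same libraries, and Rab3d was chosen for its lower values in the mutants. The counts of regions are therefore descriptive as well, and no enrichment was tested. Among the secretory Rab genes, the correlation with Rab3d was 0.70 for Rab26, 0.62 for Rab3a, 0.44 for Rab8b, -0.088 for Rab27a, -0.22 for Rab37 and -0.38 for Rab8a.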

How the data were processed

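The authors trimmed reads with cutadapt, aligned them with STAR 2.4.2 to the mm9 genome, counted them with featureCounts 1.5 and deposited TPM calculated without immunoglobulin and T cell receptor genes, 53 of which the PC files name and which were left out here. The deposited TPM keep no depth, so that the precision of low values is unknown. Peaks were called by the authors for each ChIP experiment after alignment with Bowtie 1.0.0 (MACS), and the peak files hold positions.

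For scaling, the median ratio of each library to the geometric mean of all libraries in a model was used, and log2(scaled TPM + 0.1) was fitted with limma 3.58.1 in R 4.3.3 (eBayes with trend) for genes that reached 1 TPM in 2 or more libraries. Fold changes refer to this scale and understate those of low genes. Tests are two-sided, with Benjamini-Hochberg adjustment over all genes of a contrast. PB contrasts used 6, PC contrasts 4 and stage contrasts 10 libraries. The authors used DESeq2 on counts, which are not analysed here. The script was tested on simulated data. Alternatives were TPM as deposited, quantile normalization, other pseudocounts and filters, eBayes without trend, other sets of libraries and the omission of each library. Peaks were intersected with bedtools 2.31.1 and GENCODE M1.

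The members and gene lists were chosen with earlier results of these data known. Beside the members, Xbp1 and Bhlha15, up to 4 genes per list and comparison with the largest called change and at least 5 TPM in a group mean were eligible to be named, as well as the genes most like Rab3d and Rab26. Mpv17l2 was named after its values were seen.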

Additional observations from a re-analysis of the deposited data

Results flagged for a closer look

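The change of Rab27a upon loss of Mist1 differed between the cell stages, with a difference of the log2 fold changes of -1.01 between PCs and PBs (SE 0.12, adjusted p = 0.00708 by limma). Both Mist1-deficient PC libraries, at 22.03 and 22.2 TPM, lay below both wildtype libraries, at 56.1 and 47.7 TPM. In PBs the log2 fold change was -0.18, with both Mist1-deficient libraries below both control libraries. The PC mutant is a Cd23-Cre deletion and the PB mutant a CreER insertion, and these cannot be told apart from the stage.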

How the results depend on the processing

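No paired analysis was possible because the labels carry no replicate numbers shared between groups. Of the gene counts, that in Xbp1-deficient PBs was 3 with TPM as deposited, 2 with quantile normalization and 3 with all 10 libraries in one model, as compared with 1. The model of all 10 libraries also tested Rab26 and Rab3b, which passed the filter on low values through the PC libraries alone. The count between the mutant PBs was 1 to 4 under all alternatives, as compared with 3, with 4 for TPM as deposited and for all 10 libraries in one model, 1 without the trend and 1 to 2 with a library left out (1 without either Xbp1-deficient library). The count for the difference between stages was 2 at a pseudocount of 1, where Rab26 was added, as compared with 1. The count in Mist1-deficient PCs was 2 to 4 under the alternatives without a library left out, and 5 or 6 genes had a Mist1 region at a TSS. Between wildtype PCs and control PBs the count was 5 to 7 under the same kinds of alternatives. It holds Rab26, Rab3b and Rab27b wherever these passed the filter on low values and is thus a description. Over all genes in Mist1-deficient PBs, 74 were lower and 12 higher with TPM as deposited and 66 and 12 with quantile normalization, as compared with 33 and 6. Values close to 0 changed sign. In Xbp1-deficient PBs, Rab27a was at 0.18 with TPM as deposited, at 0.12 with quantile normalization, at 0.037 with all 10 libraries in one model and at -0.10 to 0.053 with a library left out, and Rab8a was at 0.021 with TPM as deposited. Rab27b in Mist1-deficient PBs was at -0.14 to 0.29 with a library left out. Rab37 in Mist1-deficient PCs was at 0.10 with quantile normalization and at -0.21 to 0.15 with a library left out. For the difference between stages, Rab3b was at 0.12 and Rab27b at -0.0067 with a pseudocount of 1, and with a library left out Rab27b was at -0.069 to 0.39 and Rab3a at -0.16 to 0.022. The scaling of the pathway lists was added after seeing the data. Beyond the scaling and pseudocount themselves, the cause was not tested. With 2 libraries in each group and unknown depth, small changes and levels below 1 TPM could not be resolved.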

Other observations

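Between wildtype PCs and control (Xbp1 fl/fl) PBs, 76.0% of all genes were called, and the shares called in the lists below were near this background. Of 28 SNARE genes tested, 8 were higher and 12 lower in PCs. The vesicle SNAREs Vamp2 (263 compared with 58.8 TPM, log2 difference 2.05, adjusted p = 4.14e-08) and Vamp1 (60.2 compared with 8.93 TPM, 2.61, adjusted p = 3.57e-07) were higher in PCs. Of 11 exocyst and Ral genes, 4 were higher and 5 lower, with Exoc6b at 27.1 and 5.49 TPM (2.17, adjusted p = 2.88e-07) and Ralb at 8.95 and 52.1 TPM (-2.64, adjusted p = 1.72e-08). Of 32 Rab regulators tested, 17 were higher and 8 lower. Adjusted p-values are from limma.

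Of the 41 other Rab genes tested between these stages, 10 were higher and 23 lower in PCs. Rab34 (0.12 compared with 9.01 TPM, -5.48, adjusted p = 1.06e-06), Rab13 (2.71 compared with 17.0 TPM, -2.72) and Rab31 (4.28 compared with 19.6 TPM, -2.28) were lower, and Rab30 (110 compared with 34.8 TPM, 1.54) was higher. PBs contained feeder cell transcripts, as given by the fibroblast markers, and their part in these levels was not tested.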
